A study of Homo sapiens with 16 samples.

Results

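IMR90 ER:RAS cells are human fibroblasts of the established fetal lung line IMR90 that carry RAS fused to an oestrogen receptor domain, so that 4-hydroxytamoxifen (4OHT) switches RAS on. The cells described here received shAHCY_4, a short hairpin RNA whose name gives AHCY as its target, and were treated with 4OHT at 100 nM. They were compared over all genes with cells that received a control labelled EV and the same 4OHT, at 4 libraries a group, or 8 of the 16 libraries of the study. The study's design calls EV without 4OHT non-senescent and EV with 4OHT senescent. The other 8 libraries are 4 of EV without 4OHT and 4 of a second hairpin, shAHCY_2, with 4OHT, used as reference points. All groups were at passage 15, were grown for 6 days in DMEM with 10% FBS, with the medium changed on day 4, and were labelled day 6 after 4OHT. Trizol and an RNeasy kit served for RNA extraction, and Smart-Seq2 with Nextera XT for the libraries.

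The labels do not expand EV, name the vector or give a hairpin without a target, so effects of carrying any hairpin and of losing AHCY cannot be told apart from these groups. None of the study's libraries had shAHCY_4 without 4OHT, so whether its changes depend on 4OHT cannot be told. Nothing in the labels says that each library is a culture of its own, so a p-value here sets a difference against the spread among libraries, which may be technical. The libraries are of bulk RNA, in which fewer cells of a type and less RNA per cell cannot be told apart.

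AHCY hydrolyses S-adenosylhomocysteine, the product left after a methyltransferase has used S-adenosylmethionine, to adenosine and homocysteine. S-adenosylhomocysteine inhibits methyltransferases, so AHCY both recycles homocysteine and keeps methylation running. Sustained RAS activity drives normal fibroblasts into senescence, a stable arrest in which E2F target genes and the mitotic program are silenced, lamin B1 is lost, and a secretory phenotype (SASP) of interleukins, chemokines, growth factors and proteases appears. The arrest depends on CDK inhibitors and the p53 and RB pathways, and the interleukins and chemokines on NF-kB and C/EBPβ.

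The 4 shAHCY_4 libraries held 8236199, 12562402, 13504240 and 15144530 counts, and the 4 EV libraries with 4OHT held 12502278 to 15284201. Libraries are named by the number in their label, and values are given in the order 53 to 56 for EV with 4OHT and 61 to 64 for shAHCY_4. In each of these 8 libraries, 11903 to 13066 genes reached 10 counts. Of 10 fibroblast markers, all 10 were tested, and their summed level was 4800 to 5456 CPM (counts set relative to library size, with TMM factors) with shAHCY_4 and 4814 to 4998 with EV and 4OHT. The other sums cover only the markers tested. The epithelial markers (5 of 10 tested) stood at 48.7 to 62.4 CPM against 54.2 to 65.4. The endothelial markers (3 of 8) stood at 2.42 to 4.96 against 4.59 to 6.32. The 1 of 9 leukocyte markers tested, PTPRC, stood at 0.0654 to 0.731 against 0 to 0.978.

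Reads assigned to MIR30A (ENSG00000207827) marked the hairpin groups. The 4 shAHCY_4 libraries held 234, 315, 328 and 346 counts of it, all 4 EV libraries with 4OHT held 0, and the EV libraries without 4OHT held 0, 1, 0 and 0. Pooled, the shAHCY_4 libraries stood at 24.7 CPM, at least 436-fold higher than the 0.0566 CPM that 3 counts over the 4 EV libraries with 4OHT would give. With shAHCY_2 the counts were 507, 706, 402 and 562, and shAHCY_4 was lower than shAHCY_2 by a log2 difference of -0.83 ± 0.12 (adjusted p = 0.00123, edgeR's quasi-likelihood test). As background, the stem-loop of the miR-30a precursor is the scaffold of a widely used class of hairpin vectors, and Smart-Seq2 does not capture mature microRNAs; the source of these reads was not tested. LINC00472, which overlaps the gene and was chosen after its values were seen, did not pass the test (-0.26 ± 0.19, adjusted p = 0.407). The sequences are shown because these reads tell the hairpin groups from the EV groups; they are from RefSeq (GRCh38.p14, minus strand, chr6:71403551-71403621 for the precursor), and capitals mark the seed, bases 2 to 8, of the mature forms.
miR-30a precursor: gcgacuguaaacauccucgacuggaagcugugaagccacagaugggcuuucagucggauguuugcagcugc
hsa-miR-30a-5p: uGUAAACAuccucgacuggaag
hsa-miR-30a-3p: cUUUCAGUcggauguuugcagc

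With shAHCY_4, 13.4, 14.03, 17.98 and 13.5 CPM of AHCY RNA were left in the 4 libraries, against 168, 163, 173 and 154 CPM with EV and 4OHT. The groups did not overlap, and the remaining level was 8.95% of the control (log2 fold change -3.48 ± 0.14 SE, adjusted p = 1.03e-13, edgeR's quasi-likelihood test). EV without 4OHT stood at 114 ± 11.3 CPM (mean ± SD, n = 4), so shAHCY_4 was also below the level without 4OHT. The AHCY-like gene AHCYL1, which encodes a related protein without the hydrolase activity, had 72.0, 72.8, 78.2 and 69.5 CPM with shAHCY_4 and 86.9, 70.2, 68.5 and 67.9 CPM with EV, overlapping ranges (adjusted p = 0.988).

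Of the 13526 genes tested between shAHCY_4 and EV, both with 4OHT, 1025 were higher and 928 lower at an adjusted p of 0.05, that is 7.58% and 6.86% of genes, or 14.4% in either direction. Higher genes were 52.5% of those called with TMM factors and 67.4% with library totals alone, which moved the median log2 fold change of all genes from 0.007 to 0.0623. Among the larger increases were MCM10, a replication initiation factor, and APOBEC3B, a DNA cytidine deaminase. MCM10 rose from 0.831, 1.57, 1.07 and 1.05 CPM to 6.33, 6.54, 5.62 and 5.36 CPM (log2 fold change 2.38 ± 0.25 SE, adjusted p = 7.78e-07). APOBEC3B rose from 1.83, 2.44, 1.61 and 1.805 CPM to 7.92, 8.85, 9.10 and 8.82 CPM (2.18 ± 0.15, adjusted p = 1.2e-09). In both genes every shAHCY_4 library was above every control library.

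The largest decreases among genes of moderate or high level were of another kind. LINC02392, a long noncoding RNA, fell from 30.7, 25.5, 29.99 and 26.0 CPM to 5.24, 3.59, 2.89 and 3.79 CPM (-2.89 ± 0.17, adjusted p = 9.04e-11, edgeR's quasi-likelihood test). ASPH, the aspartate β-hydroxylase of the endoplasmic reticulum, fell from 1543, 1498, 1558 and 1565 CPM to 710.3, 630.2, 642 and 652 CPM (-1.23 ± 0.07, adjusted p = 9.04e-11). Both sets of libraries were tight and far apart. The neuroendocrine secretory granule genes PTPRN and SCG5 fell as well. PTPRN went from 40.1, 35.6, 45.1 and 38.0 CPM to 11.6, 10.6, 12.7 and 12.8 CPM (-1.73 ± 0.15, adjusted p = 2.6e-08). SCG5 went from 155, 158, 144 and 151 CPM to 59.3, 56.6, 58.96 and 65.9 CPM (-1.33 ± 0.10, adjusted p = 5.4e-09). The same part of the ranking held TAGLN3, a calponin-family protein (-1.37 ± 0.09), GPAT3, which acylates glycerol-3-phosphate in lipid synthesis (-1.39 ± 0.13), the aldo-keto reductase AKR1C1 (-1.31 ± 0.14) and ID1, an inhibitor of basic helix-loop-helix factors (-1.31 ± 0.13), all 4 without overlap between the groups.

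**Figure D1:**
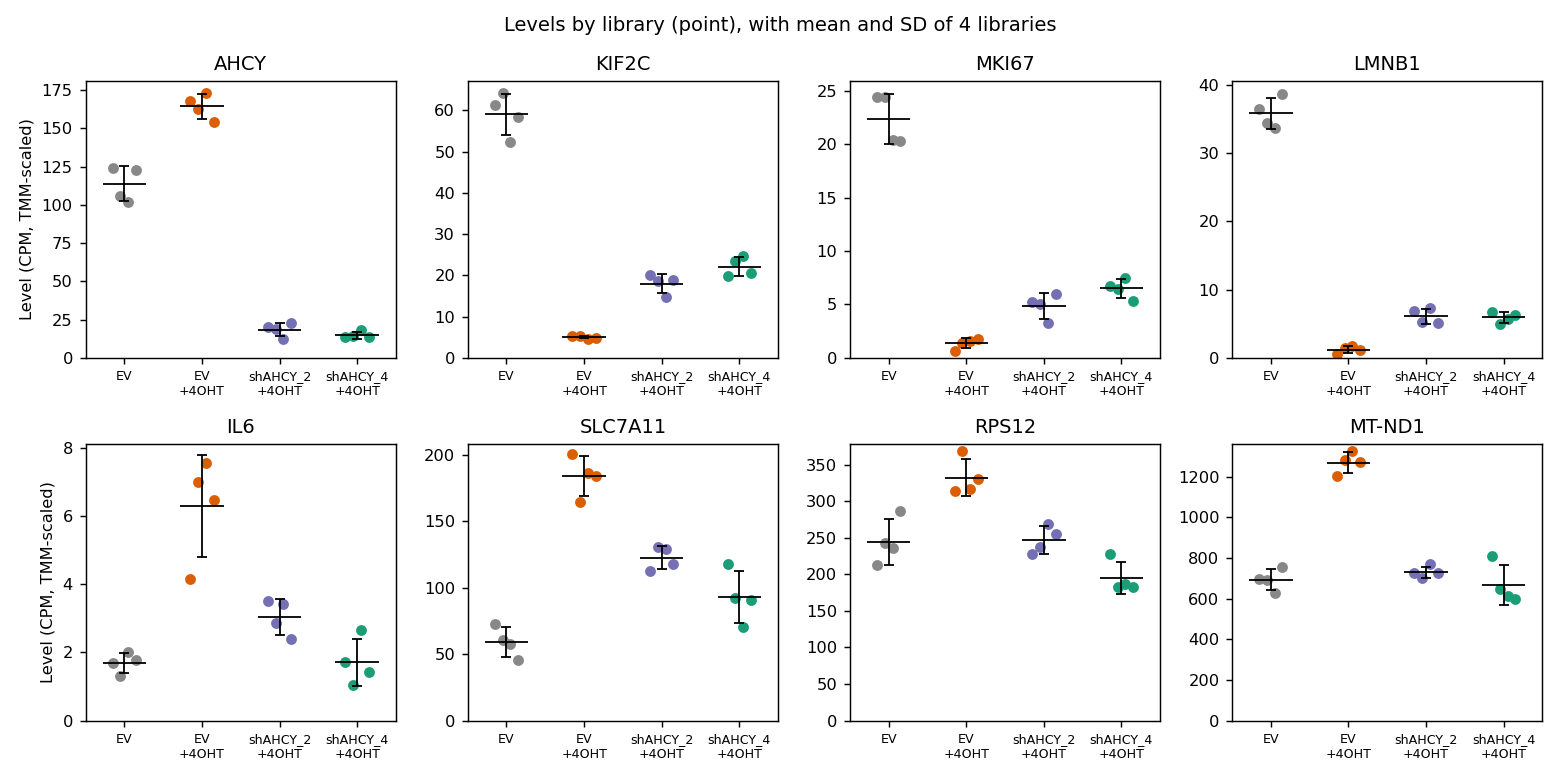
Levels in CPM (vertical axis, from 0) of 8 genes in every library of the 4 groups (horizontal axis); points are libraries, lines and bars the mean and SD of 4 libraries. KIF2C, MKI67 and LMNB1 with shAHCY_4 lie above EV with 4OHT and far below EV without it, while AHCY, IL6, SLC7A11, RPS12 and MT-ND1 lie below EV with 4OHT.

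**Figure D2:**
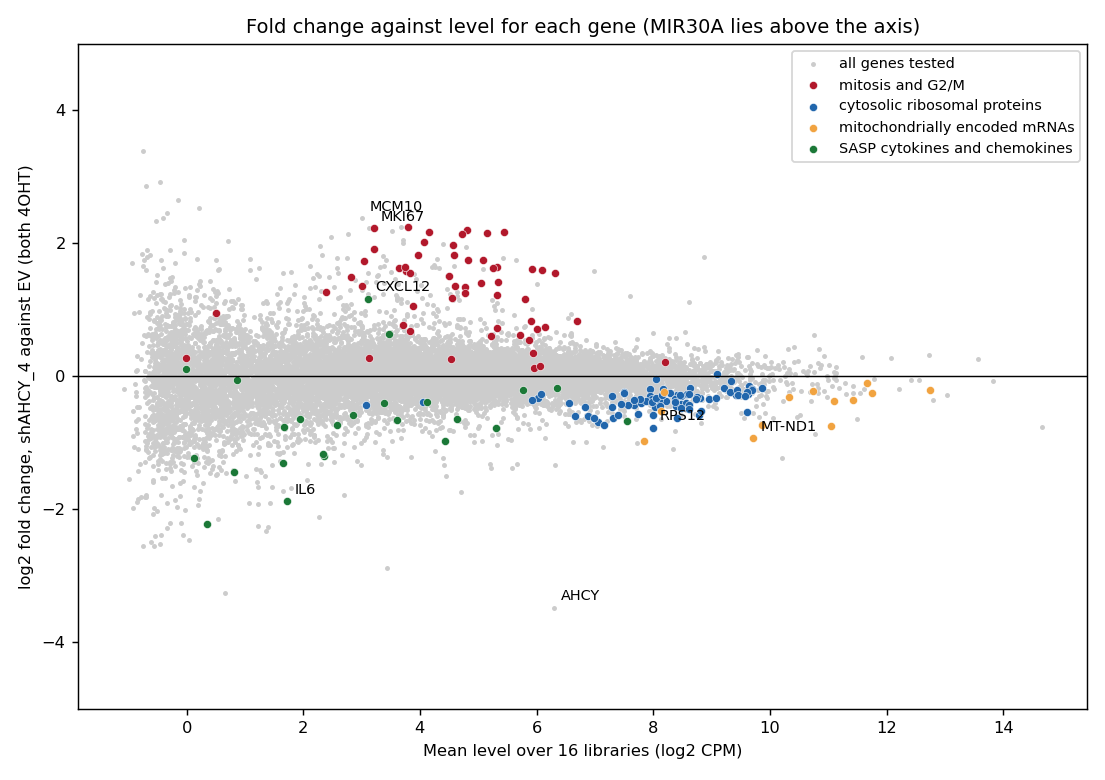
Log2 fold change of shAHCY_4 against EV, both with 4OHT (vertical axis), against the mean level over 16 libraries in log2 CPM (horizontal axis), with each point a gene and 4 gene lists coloured. Mitosis genes lie mostly above 0 at low to middle levels, and ribosomal protein and mitochondrially encoded mRNAs below 0 at high levels.

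The genes around AHCY itself changed by small amounts where they were called. In the list of the methionine cycle and polyamine synthesis, from which AHCY was left out as the hairpin's target, 1 of 21 genes tested rose and 6 fell. MAT2A, which makes S-adenosylmethionine, fell from 243, 226, 252 and 245 CPM to 204, 189, 171 and 171 CPM (-0.39 ± 0.08, adjusted p = 0.0013, edgeR's quasi-likelihood test). SRM, spermidine synthase, fell from 96.5, 94.7, 106 and 99.7 CPM to 67.2, 77.7, 66.7 and 71.4 CPM (-0.49 ± 0.08, adjusted p = 0.000345). Neither gene's groups overlapped. PEMT, which methylates phosphatidylethanolamine and is a large consumer of S-adenosylmethionine, fell by 0.50 on the log2 scale. In methionine salvage, APIP fell by 0.35, while ADI1, a later enzyme of the route, rose by 0.28, a call that was lost without a filter on low counts.

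Among 39 histone and DNA methyltransferases tested, 9 rose and 1 fell, and the list's median was 0.14 on the log2 scale. Of those that rose, EZH2, the H3K27 methyltransferase of Polycomb complex PRC2, went from 7.56, 5.81, 6.23 and 6.92 CPM to 11.7, 11.8, 10.2 and 9.35 CPM (0.69 ± 0.13, adjusted p = 0.000754, edgeR's quasi-likelihood test). All 4 shAHCY_4 libraries were above the controls. NSD2, an H3K36 methyltransferase, rose by 0.83, and EHMT2, an H3K9 methyltransferase, by 0.48, while SMYD3 fell by 0.36. The count of 9 is not firm: it was 5 with limma-voom, 4 without a filter, and 3 to 5 without any one of 6 of the 8 libraries, lowest without EV library 56 and without shAHCY_4 library 62. None of the 18 genes tested in the list of histone demethylases, which also holds TET1 and TET2, passed edgeR's test. At an unadjusted p under 0.05, 1 was higher and 2 were lower, and DESeq2 and limma-voom called none. In the adenosine list, of 12 genes tested, ADORA2B, an adenosine receptor, and ADA, adenosine deaminase, rose by 0.71 and 0.59, and 3 fell, among them PNP, purine nucleoside phosphorylase, by 0.40.

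Cell division genes had the largest share of members called higher among the lists. Of 56 mitosis and G2/M genes tested, 48 rose with shAHCY_4 and the other 8 did not pass, and the list's median log2 fold change was 1.39 against 0.007 over all genes. PLK1, the kinase of mitotic entry and spindle assembly, went from 8.73, 7.62, 9.17 and 8.05 CPM to 33.5, 37.0, 41.4 and 38.8 CPM (2.17 ± 0.14, adjusted p = 2.96e-10, edgeR's quasi-likelihood test). All its shAHCY_4 libraries were above all controls. FOXM1, the transcription factor of the G2 program, rose by 2.15 ± 0.22, CKAP2L, a spindle protein, by 2.25 ± 0.19, KIF20A, a kinesin of cytokinesis, by 2.21 ± 0.20, and PBK, a mitotic kinase, by 2.16 ± 0.13.

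Of 52 genes of DNA replication and G1/S, 36 rose and none of the others passed, with a median of 0.60. RRM2, the regulated subunit of ribonucleotide reductase, went from 33.7, 36.7, 34.5 and 32.0 CPM to 110.0, 108, 93.9 and 100.8 CPM (1.59 ± 0.07, adjusted p = 1.26e-12, edgeR's quasi-likelihood test), with no overlap. GINS2, a helicase subunit, rose by 1.54 ± 0.16, and CLSPN, the checkpoint mediator claspin, by 1.58 ± 0.18. Of 25 genes of homologous recombination and the Fanconi pathway, 16 rose and the others did not pass, with a median of 0.90. FANCI, which is monoubiquitinated at crosslinks, went from 11.2, 12.4, 10.2 and 11.4 CPM to 25.6, 24.4, 25.4 and 24.5 CPM (1.14 ± 0.11, adjusted p = 1.81e-07). Again the groups were separate.

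Nuclear envelope and chromatin architecture genes rose in smaller number, 9 of 18 tested, with a median of 0.24. LMNB1, lamin B1, went from 0.582, 1.41, 1.67 and 1.203 CPM to 6.70, 4.94, 5.70 and 6.34 CPM, its receptor LBR rose by 0.59 ± 0.10, and the chromatin proteins HMGB2 and HMGB1 by 0.999 ± 0.12 and 0.57 ± 0.12. Replication-dependent histones were mixed: of 17 tested, 2 rose and 3 fell, with H4C3 at 1.14 ± 0.15 and H2BC4 at -0.66 ± 0.12. Their list holds 49 genes, of which 21 were matched, so most of the family was not measured here.

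Mitosis, replication and recombination genes stayed below their level in cells without 4OHT. The median mitosis gene stood at 34.8% of EV without 4OHT with shAHCY_4 and at 12.2% with EV and 4OHT, replication genes at 50.6% and 32.2%, and recombination genes at 48.5% and 27.6%. Over all genes, 25.4% were called higher and 25.8% lower (51.2% in either direction) in shAHCY_4 with 4OHT against EV without 4OHT, a comparison in which the hairpin and 4OHT differ together. In it, 52 of 56 mitosis genes, 48 of 52 replication genes and 21 of 25 recombination genes were lower, and none was higher. Of the 18 nuclear envelope and chromatin architecture genes, 12 were lower and 2 higher, and of the 17 histones, 6 were lower and 8 higher. LMNB1 reached 16.6% of its level without 4OHT, from 3.41% with EV and 4OHT, PLK1 39.4% from 8.78%, and RRM2 41.1% from 13.6%.

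**Figure D3:**
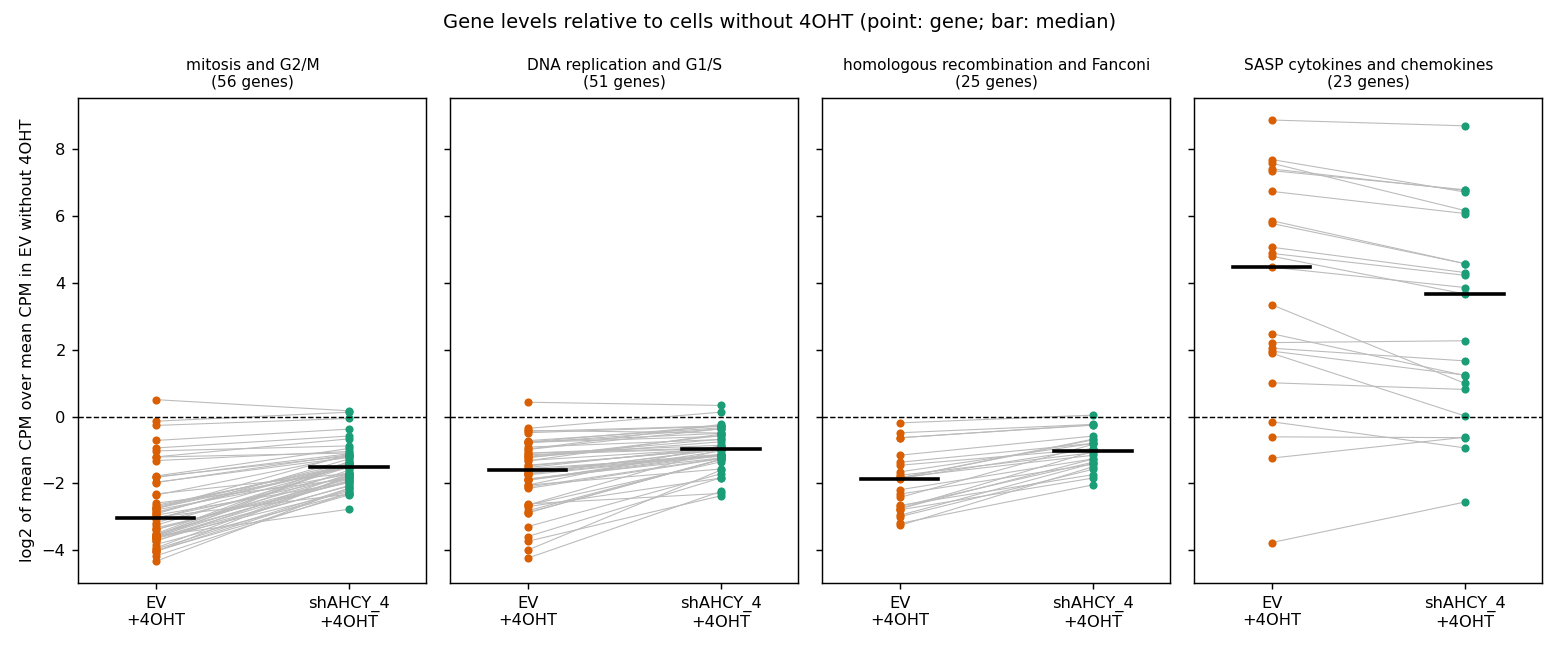
Log2 ratio of each gene's mean CPM to its mean in EV without 4OHT (vertical axis, dashed line at the level without 4OHT), for EV with 4OHT and shAHCY_4 with 4OHT (horizontal axis), in 4 gene lists; points are genes, bars medians, and genes with a mean of 0 in a group are left out. Lines from left to right rise for nearly all cell division genes, and nearly all end below the dashed line, while most SASP genes stay above it.

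Promoters of these genes are shown because the members move together. RefSeq promoters (GRCh38.p14, 250 bases before to 50 after the start) were found for 10343 of the 13526 genes tested, and each motif was searched on both strands by itself, so that matches of different motifs may overlap. The cell cycle homology region (CHR, TTTGAA), bound by MuvB complexes, was in 33 of 47 mitosis promoters (70.2%), in 2 of 45 replication promoters (4.44%) and in 9.93% of all 10343. CCAAT, the letters read by NF-Y, was in 35 of 47 mitosis promoters (74.5%), 23 of 45 replication promoters (51.1%), 12 of 21 recombination promoters (57.1%), 19 of 35 integrated stress response promoters (54.3%), 16 of 25 cholesterol promoters (64%) and 36.8% of all. The E2F letters TTCCCGC were in 19 of 45 replication promoters (42.2%), 10 of 21 recombination promoters (47.6%), 5 of 47 mitosis promoters (10.6%) and 10.1% of all. A match is a run of letters and not a shown binding site. Whether members with a motif changed otherwise than members without it was not tested. In the windows of 30 bases that follow, capitals mark the CHR, and in GINS2 the reverse complement of the E2F letters.
PLK1, chr16:23678848-23678877, plus strand: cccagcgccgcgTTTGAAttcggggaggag
BUB1B, chr15:40161034-40161063, plus strand: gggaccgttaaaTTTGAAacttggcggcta
CCNB2, chr15:59105105-59105134, plus strand: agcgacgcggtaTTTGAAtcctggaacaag
MKI67, chr10:128126435-128126464, minus strand: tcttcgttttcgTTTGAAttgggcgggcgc
CKAP2L, chr2:112764609-112764638, minus strand: acaggcgcggcgTTTGAAgaaaaactgtca
GINS2, chr16:85688967-85688996, minus strand: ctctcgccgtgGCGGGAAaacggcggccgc
In PLK1, CCNB2 and MKI67 the CHR starts 29 bases before the annotated start, and in BUB1B 23 bases. These genes rose by 2.17 ± 0.14 (PLK1), 2.17 ± 0.18 (BUB1B), 1.22 ± 0.10 (CCNB2), 2.23 ± 0.23 (MKI67), 2.25 ± 0.19 (CKAP2L) and 1.54 ± 0.16 (GINS2) on the log2 scale.

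Of 10 CDK inhibitors and pocket proteins tested, 3 rose and 1 fell, where 14.4% of all genes were called. CDKN3, a phosphatase of CDKs that is itself a mitotic gene, rose by 1.32 ± 0.14, and the pocket proteins RBL1 and RBL2, relatives of RB, by 1.24 ± 0.21 and 0.67 ± 0.11. CDKN2B, which encodes p15, stood at 212, 215, 224 and 225 CPM with EV and 189, 190.0, 214 and 213 CPM with shAHCY_4 (-0.12 ± 0.10, adjusted p = 0.5, edgeR's quasi-likelihood test). CDKN1A, which encodes p21, stood at 2701, 2642, 2669 and 2498 CPM and 2577, 3046, 3133 and 2830.4 CPM (0.14 ± 0.08, adjusted p = 0.252). The ranges overlapped in both. CDKN2A, which encodes p16 and ARF, was the gene that fell (-0.36 ± 0.09). Of 28 p53 target genes tested, 4 rose (7 when the fit held only these groups) and 3 fell, with a median of 0.13. The DNA damage recognition gene XPC (0.65 ± 0.11), FDXR (0.56 ± 0.12), AEN (0.33 ± 0.10) and BAX (0.26 ± 0.08) rose, and the death receptor TNFRSF10B (-0.35 ± 0.09) and the stress gene GADD45A (-0.39 ± 0.11) were among those that fell. AEN, BAX and GADD45A passed by little: each call was lost without any one of 4 or more of the 8 libraries, EV libraries 54 and 56 and shAHCY_4 libraries 62 and 63 among them.

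The SASP did not move as one. Of 24 cytokines and chemokines tested, 13 fell, 2 rose and 9 did not pass, and the median was -0.66 on the log2 scale. Among the ELR chemokines, which attract neutrophils, CXCL8 went from 320.2, 334, 348 and 343 CPM to 247, 197, 211 and 194 CPM (-0.66 ± 0.11, adjusted p = 0.000253, edgeR's quasi-likelihood test). CXCL2 went from 8.98, 9.74, 11.05 and 9.85 CPM to 4.26, 3.03, 5.33 and 4.57 CPM (-1.199 ± 0.19, adjusted p = 0.000115). Neither overlapped. CXCL3, CXCL5 and CXCL6 fell by 0.64, 1.17 and 2.23, and CXCL1 by 0.65, although the ranges of its libraries overlapped and its call was lost without EV library 56, shAHCY_4 library 62 or shAHCY_4 library 64. Of other chemokines, CCL2, which attracts monocytes, fell by 0.77, and CCL20 by 1.30, a call lost without EV library 54.

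IL6 went from 4.16, 6.99, 7.57 and 6.47 CPM to 1.70, 1.04, 2.66 and 1.44 CPM (-1.88 ± 0.26, adjusted p = 2.7e-05, edgeR's quasi-likelihood test), low levels with no overlap. The alarmin IL33 fell by 1.43. IL1B, which sits upstream of IL6 and CXCL8 in the SASP, had 124, 136, 129 and 135 CPM with EV and 124, 115, 115 and 111 CPM with shAHCY_4 (-0.18 ± 0.11, adjusted p = 0.326), and the ranges met. IL1A stood at 11.1, 10.7, 11.9 and 15.4 CPM and 8.52, 7.17, 9.47 and 7.84 CPM (-0.58 ± 0.20) and missed the threshold at an adjusted p of 0.0522; it was called by DESeq2 and limma-voom and with RLE factors. The genes that rose were CXCL12, a homeostatic chemokine of fibroblasts, by 1.17 ± 0.26, and CSF1, the macrophage growth factor, by 0.63 ± 0.19, the call of CSF1 being lost without EV libraries 54 or 56 or shAHCY_4 libraries 62 or 63. Against EV without 4OHT, 18 of the 24 were still higher and 3 lower.

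Growth factors gave 2 increases and 6 decreases among 28 tested, where 7.58% of all genes rose and 6.86% fell. The increases were near the share of all genes. Among the genes that fell were 4 that encode ligands of EGF receptors, of which EREG went from 247, 221, 278 and 256 CPM to 148, 117, 104 and 112 CPM (-1.06 ± 0.12, adjusted p = 2.31e-06, edgeR's quasi-likelihood test). AREG, NRG1 and HBEGF fell by 1.502, 0.78 and 0.44. IGFBP5, a binding protein of insulin-like growth factors, fell by 0.63, and STC2 by 0.51, while STC1 and the BMP antagonist GREM1 rose by 0.29 and 0.34. Of 17 proteases and protease inhibitors tested, 4 rose and 6 fell, to be read against the same shares. Stromelysin 1, MMP3, rose from 1970.3, 1774, 1859 and 1763 CPM to 3387, 2888, 2427 and 2658 CPM (0.62 ± 0.14, adjusted p = 0.00318), with every shAHCY_4 library above the controls. TIMP3, an inhibitor of these enzymes, rose by 0.41, whereas TIMP1 fell by 0.27, and the plasminogen activator PLAT by 0.33.

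The NF-kB list holds subunits, inhibitors and targets. In it 1 of 19 tested was lower, the shared target PTGS2, and none higher, where 14.4% of all genes were called in either direction. At an unadjusted p under 0.05 none was higher and 3 were lower, and DESeq2 and limma-voom each called 2 lower. CEBPB, which encodes C/EBPβ, fell from 5.82, 6.52, 7.30 and 6.62 CPM to 3.90, 2.79, 3.70 and 3.92 CPM (-0.88 ± 0.17, adjusted p = 0.00135, edgeR's quasi-likelihood test). It was the 1 gene called among 15 C/EBP and AP-1 factors, a count to be read against the same 14.4%. In prostaglandin synthesis the inducible cyclooxygenase PTGS2 fell from 43.0, 39.4, 44.3 and 40.5 CPM to 26.1, 22.6, 26.0 and 21.4 CPM (-0.80 ± 0.15, adjusted p = 0.000999). PTGS1, the constitutive cyclooxygenase, rose from 36.7, 36.8, 40.7 and 45.5 CPM to 72.2, 87.7, 89.0 and 74.7 CPM (1.02 ± 0.11, adjusted p = 1.45e-06). Both were free of overlap, and PTGDS, a prostaglandin D synthase, fell by 1.44.

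RAS signals through ERK, whose feedback inhibitors serve as a readout of its activity. Of 25 ERK targets and feedback genes tested, 6 fell with shAHCY_4 and none rose, with 5 higher and 8 lower at an unadjusted p under 0.05, 2 and 7 by DESeq2 and 1 and 6 by limma-voom; the median was 0.04. The phosphatases DUSP1 and DUSP5 fell by 0.58 and 0.60, the feedback inhibitor SPRY2 by 0.44 and the ETS factor ETV4 by 0.51. The ERK phosphatases DUSP6 (745, 723, 731 and 776 CPM against 756, 788, 775 and 792 CPM with shAHCY_4) and DUSP4 did not pass, at 0.06 ± 0.07 and -0.02 ± 0.14.

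Of 19 genes tested in the list of BMP and TGFβ signalling, which holds ligands and receptors besides targets, 6 fell and 1 rose. ID1 went from 73.6, 59.5, 59.5 and 61.3 CPM to 25.9, 28.9, 23.1 and 24.4 CPM (adjusted p = 3.41e-07, edgeR's quasi-likelihood test). ID2 went from 46.9, 40.4, 40.4 and 39.9 CPM to 29.3, 21.8, 18.1 and 19.5 CPM (-0.93 ± 0.12, adjusted p = 9.31e-06). Both are inhibitors of basic helix-loop-helix factors, and both groups were apart. ID3 fell by 0.53, the inhibitory SMAD7 by 0.66 and the decoy receptor BAMBI by 0.998. TGFBI, a matrix protein induced by TGFβ, went from 1758, 1973, 1818 and 1904 CPM to 1169, 1217, 1271 and 1212 CPM (-0.61 ± 0.07, adjusted p = 1.65e-06). In the Notch list of 10 genes, the ligand JAG2 fell by 2.03 and the receptor NOTCH2 by 0.28; the call of JAG2 was lost without EV libraries 53 or 54 or shAHCY_4 library 62, and that of NOTCH2 without any one of 5 of the 8 libraries and with library totals alone.

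Ribosomal protein genes were lower as a block, each by a modest amount. Of 78 cytosolic ribosomal protein genes tested, 60 fell and the other 18 did not pass, with a median log2 fold change of -0.34 in the large and -0.35 in the small subunit. RPS12, a small-subunit protein, went from 314, 369, 317 and 329.8 CPM to 228, 182, 187 and 183 CPM (-0.77 ± 0.09, adjusted p = 4.39e-06, edgeR's quasi-likelihood test). RPLP1, an acidic stalk protein, went from 891, 1085, 899.7 and 991 CPM to 685, 656, 671 and 644 CPM (-0.54 ± 0.09, adjusted p = 0.000124). Neither overlapped; without EV library 54 the small-subunit count dropped from 26 to 16. These genes have many processed pseudogenes, so their counts depend on how the authors assigned reads that match several copies.

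As a share of all counts, ribosomal protein genes took 2.46% ± 0.065 with shAHCY_4 (SD, n = 4, 2.38% to 2.54%) and 2.96% ± 0.197 with EV and 4OHT (2.79% to 3.22%). The difference of -0.496 percentage points gave an exact two-sided permutation p = 0.0286, the smallest that 4 against 4 allows, and 0.0381 after Benjamini-Hochberg adjustment over 4 tests of shares. EV without 4OHT stood at 2.80% ± 0.30. Of 37 translation factors, 8 fell (13 when the fit held only these groups) and 1 rose. EIF1, which guards start codon choice, went from 1149.7, 1219, 1095 and 1132 CPM to 795, 734, 738 and 733 CPM (-0.61 ± 0.06, adjusted p = 2.81e-07), EIF2S3, a subunit of eIF2, fell by 0.47, and EIF2S1, another subunit, rose by 0.23. Among ribosome biogenesis factors, 4 of 29 rose (8 with library totals alone), among them NOLC1 and POLR1B, a subunit of RNA polymerase I, by 0.33 and 0.39, and none fell.

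Most ribosomal protein mRNAs begin with a 5′ terminal oligopyrimidine tract, through which their translation is tied to mTOR. The letters CTTT, on the sense strand from 5 bases before to 10 after the start, were in 35 of 63 ribosomal protein genes with a RefSeq promoter (55.6%), in 10 of 29 translation factors (34.5%) and in 6.61% of all. Windows of 30 bases around the start of 4 genes show it, with the CTTT in capitals.
RPS12, chr6:132814554-132814583, plus strand: gcgtgcggatgaggcctCTTTccctgccgc
RPL28, chr19:55385917-55385946, plus strand: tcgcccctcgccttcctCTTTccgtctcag
RPLP1, chr15:69452803-69452832, plus strand: gtataggcgcgagagcccCTTTcctcagct
RPS21, chr20:62387088-62387117, plus strand: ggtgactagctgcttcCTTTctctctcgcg
All 4 genes fell, RPL28 by 0.59 and RPS21 by 0.59.

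RNA from the mitochondrial genome was lower too. Mitochondrial genes took 4.604% ± 0.30 of counts with shAHCY_4 (SD, n = 4, 4.38% to 5.04%) and 6.41% ± 0.05 with EV and 4OHT (6.34% to 6.47%). The difference of -1.804 percentage points gave an exact two-sided permutation p = 0.0286, or 0.0381 adjusted over 4 tests; the shallowest library had the highest share of the shAHCY_4 group. EV without 4OHT stood at 5.51% ± 0.24. The share takes in the ribosomal RNA MT-RNR2, the gene with the most counts in every library. MT-RNR2 alone took 1.69% to 2.15% of counts with shAHCY_4 and 2.92% to 3.10% with EV and 4OHT. Much of the difference in share therefore lies in this RNA and not in the mRNAs. Of 13 mitochondrially encoded mRNAs, 11 fell and the other 2 did not pass, with a median of -0.36. MT-ND1, a subunit of complex I, went from 1201, 1279, 1324 and 1269 CPM to 809, 648, 612 and 598 CPM (-0.93 ± 0.08, adjusted p = 4.53e-08, edgeR's quasi-likelihood test). MT-ND3 fell by 0.97 and MT-CO1, a subunit of complex IV, by 0.74, while MT-CYB of complex III fell by only 0.26 and MT-CO2 stood at -0.10 ± 0.07 without passing. The list's log2 fold changes ran from -0.97 to -0.10.

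Of 75 nuclear genes of the respiratory chain, 12 fell and 2 rose, where 6.86% of all genes fell and 7.58% rose, and the median was -0.18. ATP5MC3, a ring subunit of ATP synthase, fell by 0.48 and COX5A of complex IV by 0.38. The 12 decreases became 33 with only these groups in the fit, 25 without a filter, and 4 without EV library 54, and 6 without EV library 56, shAHCY_4 library 62 or shAHCY_4 library 64. Of 74 mitochondrial ribosomal protein genes, 3 rose (10 with library totals alone) and 1 fell.

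The NRF2 list holds targets of this regulator of antioxidant genes, besides NFE2L2, which encodes NRF2 itself, and KEAP1. Its genes were lower or did not pass: of 25 tested, 12 fell and none rose, with a median of -0.30. At an unadjusted p under 0.05 none was higher and 16 were lower, and DESeq2 and limma-voom each called 12 lower and none higher; without shAHCY_4 library 63, 7 were lower. SLC7A11, the cystine transporter that feeds glutathione synthesis, went from 201, 164, 186 and 184 CPM to 118, 92.5, 70.4 and 91.1 CPM (-0.99 ± 0.13, adjusted p = 1.3e-05, edgeR's quasi-likelihood test). HMOX1, haem oxygenase 1, went from 199.6, 159, 187 and 158 CPM to 108, 96.5, 66.3 and 85.7 CPM (-0.98 ± 0.14, adjusted p = 2.43e-05). PRDX1, a peroxiredoxin, went from 1385, 1474, 1376 and 1409 CPM to 991, 921, 871 and 877 CPM (-0.62 ± 0.06, adjusted p = 3.41e-07). None of the 3 overlapped. SLC7A11 is also counted in the list of the integrated stress response. TXN, thioredoxin, fell by 0.69, and NQO1, a quinone reductase, by 0.56. The median gene of the list stood at 112% of EV without 4OHT with shAHCY_4 and at 146% with EV and 4OHT.

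The integrated stress response, driven by ATF4 when eIF2α is phosphorylated, was split: of 43 tested, 11 fell (7 without shAHCY_4 library 64) and 4 rose, with a median of -0.09. ATF4 itself fell by -0.46 ± 0.08. The amino acid transporter SLC3A2, the partner of SLC7A11, fell by 0.38, the serine enzyme PSAT1 by 0.33 and VLDLR by 0.90, whereas AARS1, the alanyl-tRNA synthetase, rose by 0.40 and ALDH18A1, of proline synthesis, by 0.41. The death-linked targets DDIT3 and TRIB3 did not pass, at 0.08 ± 0.08 and 0.06 ± 0.08. The letters TTGCATCA, a site of ATF4 dimers, were in 6 of 35 promoters of the list (17.1%) and 0.493% of all, on either strand. In serine and folate one-carbon metabolism, 7 of 24 rose (4 without EV library 56) and 2 fell.

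Of 26 chaperone and unfolded protein response genes of the endoplasmic reticulum, 9 rose, 1 fell and 16 did not pass, with a median of 0.15. PDIA4, a disulphide isomerase, went from 241, 255, 243 and 241 CPM to 331, 375, 375 and 375 CPM (0.57 ± 0.07, adjusted p = 5.39e-06, edgeR's quasi-likelihood test), with every shAHCY_4 library above the controls. HSPA5, the main Hsp70 of that compartment, rose by 0.44, PDIA3 by 0.44, SDF2L1 by 0.55 and HSP90B1 by 0.32. In cholesterol synthesis, 9 of 32 rose and none fell, with 19 higher at an unadjusted p under 0.05 and 10 by DESeq2 and by limma-voom. Its count was 16 with library totals alone or with only these groups in the fit, 5 without EV library 56 and 3 without shAHCY_4 library 63. SCD, the stearoyl-CoA desaturase, went from 257, 260.3, 252 and 257 CPM to 325, 336, 368 and 348 CPM (0.42 ± 0.06, adjusted p = 5.96e-05), with no overlap. The letters TCACNCCAC, a form of the sterol regulatory element, were in 1 of 25 promoters of the list and in 1.12% of all, on either strand.

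The counts in this paragraph are to be read against the 7.58% of all genes that rose and the 6.86% that fell. Of 39 matrix genes, 11 rose and 1 fell, and 7 rose without EV library 53, EV library 56, shAHCY_4 library 62 or shAHCY_4 library 63. FBLN1, the matrix glycoprotein fibulin 1, went from 17.8, 20.3, 19.7 and 14.7 CPM to 31.2, 36.8, 37.3 and 32.5 CPM (0.93 ± 0.10, adjusted p = 1.44e-06, edgeR's quasi-likelihood test). Its groups did not overlap. Tenascin C, TNC, rose by 0.65, periostin, POSTN, by 0.67, and fibulin 5, FBLN5, by 0.56, and biglycan, BGN, fell by 0.47. Of 24 integrins and adhesion genes, 2 rose and 5 fell, among them ITGB3, which is linked to senescence, by 0.67. Of 31 lysosome and autophagy genes, 2 rose and 6 fell, including NPC1, the lysosomal cholesterol exporter, by 0.69 and the autophagy receptor SQSTM1 by 0.55. Interferon-stimulated genes gave 2 increases, USP18 and IFIT5 (0.59 ± 0.12 and 0.37 ± 0.10), and no decrease among 26 tested, increases near the share of all genes. The call of IFIT5 was lost without EV library 54 or shAHCY_4 library 61. Of 32 genes of glycolysis and hypoxia, 3 rose and 6 fell (3 without shAHCY_4 library 64), GAPDH by 0.36 among them.

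Calls in the remaining lists, as in those above, are to be read against the 14.4% of all genes called, 7.58% higher and 6.86% lower. Of 21 transcription factors of lung fibroblasts, 4 rose (7 with library totals alone) and 1 fell, with a median of 0.28. Of 28 RNA methyltransferases, 3 rose and 1 fell. Of 20 genes of the BCL2 family and apoptosis, 2 rose, and of 24 heat shock and chaperonin genes, 2 fell. The proteasome had 2 increases and 3 decreases among 33 tested, and contractile genes 1 of each among 19.

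**Figure D4:**
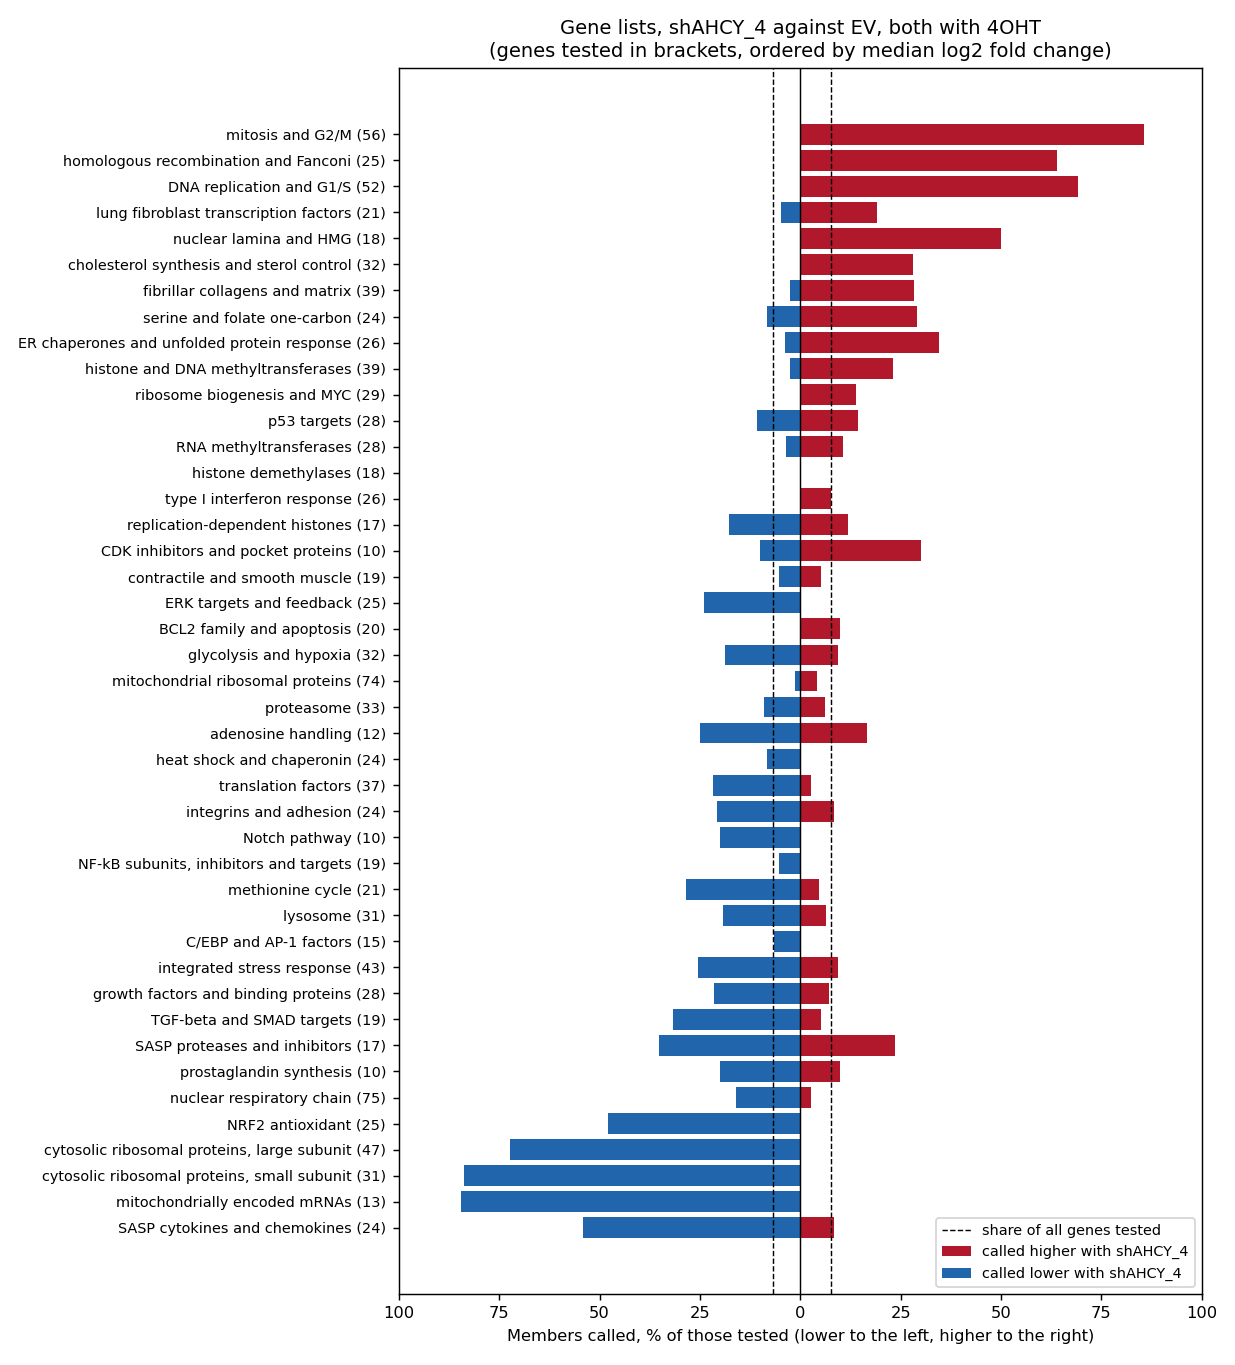
Share of tested members called higher (to the right) or lower (to the left) with shAHCY_4 against EV, both with 4OHT, in percent, for each gene list with at least 10 members tested, ordered by median log2 fold change; dashed lines mark 7.58% higher and 6.86% lower over all genes. Cell division lists reach furthest to the right, and ribosomal proteins and mitochondrially encoded mRNAs furthest to the left.

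The hairpins were compared directly, shAHCY_4 against shAHCY_2, both with 4OHT. Of 13526 genes, 73 were higher with shAHCY_4 (0.54%) and 95 lower (0.702%). The number depends on the method: DESeq2 called 244 and 237, the fit without a filter 123 and 430, and the fit with only these groups 31 and 47. It also rests on single libraries, with 28 higher without shAHCY_4 library 62 and 38 lower without shAHCY_4 library 64. Across 13250 genes the log2 difference was correlated with GC content (Spearman's rho 0.309, against 0.0104 for shAHCY_4 against EV), and what part of the difference moves with it was not tested. AHCY was 14.7 ± 2.19 CPM with shAHCY_4 and 18.5 ± 4.54 CPM with shAHCY_2 (mean ± SD, n = 4), a difference of -0.34 ± 0.14 that did not pass (adjusted p = 0.216, edgeR's quasi-likelihood test). It passed without shAHCY_2 library 59, and a p that misses the threshold does not show equal knockdown.

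ASPH had the smallest adjusted p of all genes between the hairpins. It stood at 710.3, 630.2, 642 and 652 CPM with shAHCY_4 and at 1251, 1295, 1479 and 1214 CPM with shAHCY_2 (-0.99 ± 0.07, adjusted p = 5.12e-08, edgeR's quasi-likelihood test). The control with 4OHT was at 1541 ± 30.1 CPM and EV without 4OHT at 1247 ± 113 CPM, so the shAHCY_2 libraries lay nearer to the control than to shAHCY_4. LRRC42, a leucine-rich repeat gene chosen after its values were seen, showed the same order, with 21.6, 20.7, 21.8 and 22.2 CPM with shAHCY_4, 42.6, 36.1, 42.0 and 41.7 CPM with shAHCY_2 and 44.3 ± 3.23 CPM with the control (-0.91 ± 0.09, adjusted p = 3.01e-06). LINC02392 was 3.87 ± 0.987 CPM with shAHCY_4 and 11.5 ± 2.38 CPM with shAHCY_2 (-1.60 ± 0.18, adjusted p = 3.11e-05). ID1 and ID2 were lower with shAHCY_4 by 0.93 and 0.86, TAGLN3 by 0.83, PTPRN by 0.92, GPAT3 by 0.89, SCG5 by 0.70, and LCOR, a nuclear receptor corepressor, by 1.004.

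Among genes at a mean log2 CPM of at least 3, the largest increase over shAHCY_2 was in G0S2, an inhibitor of the triglyceride lipase ATGL. Its level was 51.9, 55.6, 48.2 and 44.6 CPM with shAHCY_4 and 20.1, 19.2, 16.0 and 27.2 CPM with shAHCY_2 (1.27 ± 0.14, adjusted p = 2.83e-05, edgeR's quasi-likelihood test), with no overlap. SRGN, the proteoglycan serglycin, was higher by 1.01 ± 0.17 and CCBE1, a secreted factor of lymphatic growth, by 0.89 ± 0.11. IL1B was higher by 0.51 ± 0.11 (adjusted p = 0.0255), with 116 ± 5.50 CPM against 81.4 ± 2.996 CPM, while against EV it had not passed. The calls of IL1B, HEPH, TMEM119 and TMSB15A were lost without most of the single libraries in turn.

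Between the hairpins 1.24% of all genes were called, so that most lists would hold none or 1 at that share. None of the 56 mitosis genes was called by edgeR's test, with 8 higher and 3 lower at an unadjusted p under 0.05 and none by DESeq2 or limma-voom, and the median log2 difference was 0.072. None of the 78 ribosomal protein genes was called either, but 41 were lower at an unadjusted p under 0.05 and 5 by DESeq2, and their median was -0.194. Their share of counts was 2.46% ± 0.065 with shAHCY_4 and 2.72% ± 0.11 with shAHCY_2, a difference of -0.255 points (exact two-sided permutation p = 0.0286, adjusted 0.0381 over 4 tests, n = 4 a group). The mitochondrial share differed by -0.373 points (exact permutation p = 0.143, n = 4). By edgeR's test no list had more than 3 members called. DESeq2 called 2 growth factors higher and 4 lower, and 1 higher and 4 lower in both the integrated stress response and the methionine cycle. Over all genes, 2425 of 13526 had an unadjusted p under 0.05 by edgeR. Among them were 9 of 26 interferon genes and 20 of 75 nuclear respiratory chain genes, all lower. So were 10 of 32 cholesterol genes, all higher, and in the NF-kB list 7 of 19 higher and 1 lower. The calls that follow are edgeR's. The lists with 3 were the translation factors, all lower (EIF1, EIF2S3 and EIF5, 3 of 37), the integrated stress response, all lower (VLDLR, PSAT1 and CTH, 3 of 43), and growth factors, 1 higher and 2 lower (3 of 28). Those with 2 were contractile genes, both higher (2 of 19), and the BMP and TGFβ list, both lower (2 of 19). The methionine cycle (2 of 21) and late cornified envelope genes (2 of 3) also had 2, all lower. The SASP cytokines had IL1B higher and CCL2 lower (2 of 24). EIF1 was lower than with shAHCY_2 by 0.36 (adjusted p = 0.00204), and among the SASP and matrix genes MMP10, PTGS1 and FBLN5 were higher by 0.54, 0.56 and 0.58.

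**Figure D5:**
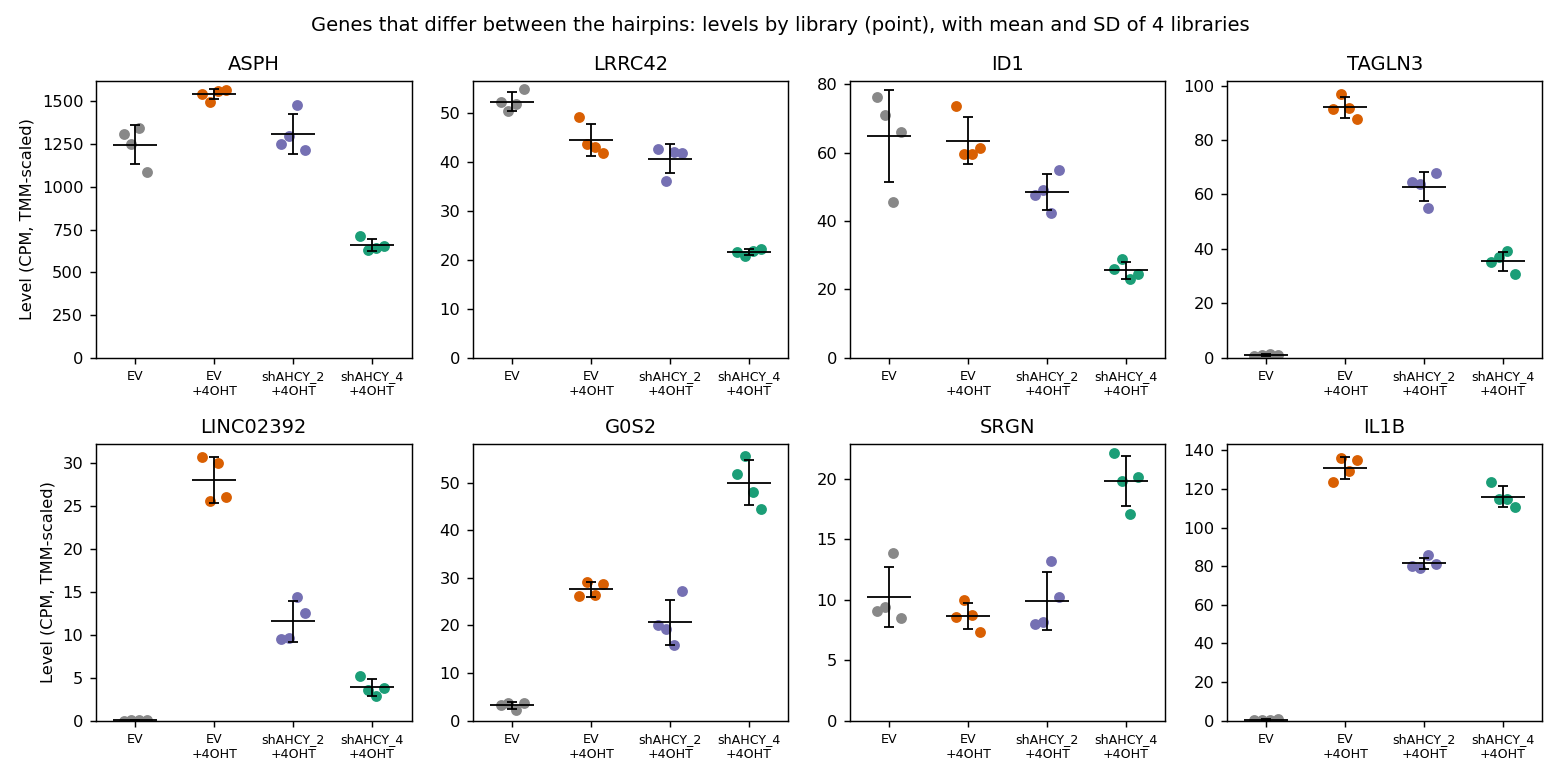
Levels in CPM (vertical axis, from 0) of 8 genes in every library of the 4 groups (horizontal axis); points are libraries, lines and bars the mean and SD of 4 libraries. ASPH and LRRC42 with shAHCY_2 lie nearer to EV with 4OHT than to shAHCY_4, and G0S2 and SRGN lie higher with shAHCY_4 than with shAHCY_2.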

How the data were processed

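RNA-seq counts per gene were deposited by the authors for 16 libraries as whole numbers, not normalized, under 62069 Ensembl identifiers, of which 39007 matched a symbol; identifiers without one held 0.635% of counts. Per the submitters' processing notes, CASAVA 1.8.2, TopHat2 2.0.11 and featureCounts 1.18.0 were used with hg19 or GRCh37. Annotation release, strand option and the handling of reads with several matches: not given in the sources used here. Since Smart-Seq2 keeps no strand, reads of genes that overlap, antisense ones included, cannot be assigned to either. Sequences and their coordinates are RefSeq's on GRCh38.p14, another build than that of the counts.

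Genes were kept by filterByExpr (13526 tested), scaled by TMM factors and fitted in 1 quasi-likelihood model with a mean per group over all 16 libraries (edgeR 4.0.16, R 4.3.3). Tests were two-sided, Benjamini-Hochberg adjusted over all genes tested, with a threshold of 0.05. Standard errors (SE) of log2 fold changes are its size over the root of F, and the biological coefficient of variation was 11.9%. A fold against a group at 0 used a floor of 3 counts over the group, which covers counting error only. Shares of counts were compared by exact permutation tests (scipy 1.17.1). The test was checked on simulated data. All 24 replicate pairs within groups differed beyond sampling noise (3.07 to 35.4 in chi-square over degrees of freedom). Alternatives were RLE factors, library totals alone, DESeq2 1.42.0, limma-voom (limma 3.58.1), no filter, 10 counts in at least 8 libraries, a fit of the compared groups alone, and leaving out each library.

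The 48 gene lists (1331 of 1372 memberships matched), the tests and the genes compared were chosen with earlier results of these data known. Named genes were AHCY, the 12 largest increases and decreases among called genes with a mean log2 CPM of at least 3 and groups that do not overlap, up to 6 members of each list by adjusted p and all members of lists of up to 25 genes, a fixed set of senescence and methionine cycle genes, and the 6 largest differences from shAHCY_2 in each direction. FOXM1, CCNB2, HBEGF, GREM1, EIF2S1, SLC3A2, DDIT3, TRIB3, BGN, LRRC42 and LINC00472 fall outside that rule and were chosen after their values were seen.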

Additional observations from a re-analysis of the deposited data

Results flagged for a closer look

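Single libraries stood apart from the other 3 of their group in 4 of 94 groups of values tested, where chance flags about 1 in 20. AHCY was 17.98 CPM in shAHCY_4 library 63 and 13.4 to 14.03 CPM in the other 3. ID1 was 73.6 CPM in EV library 53 with 4OHT and 59.5 to 61.3 CPM in the others. AHCYL1 was 86.9 CPM in EV library 53 with 4OHT and 67.9 to 70.2 CPM in the others. ANKRD33BP1, a pseudogene transcript, was 8.13 CPM in shAHCY_4 library 62 and 5.48 to 5.62 CPM in the others.

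The next genes differed between shAHCY_4 and shAHCY_2 at an adjusted p under the threshold (edgeR's quasi-likelihood test), given as log2 differences of shAHCY_4 from shAHCY_2. Lower with shAHCY_4 were LINC02392 (-1.60), LCOR (-1.004), ASPH (-0.99), LCE2A, a late cornified envelope gene (-0.97), ID1 (-0.93), TMSB15A, a thymosin (-0.92), PTPRN (-0.92), GPAT3 (-0.89), TAGLN3 (-0.83), MIR30A (-0.83) and SCG5 (-0.70). Higher with shAHCY_4 were G0S2 (1.27), SRGN (1.01), HEPH, a ferroxidase (0.93), CCBE1 (0.89), LRRC15, a leucine-rich repeat membrane protein (0.81), TMEM119 (0.78) and IL1B (0.51). Their causes were not tested. Against EV with 4OHT, TMSB15A was higher with shAHCY_4 (0.98) although lower than with shAHCY_2, and that call was lost with limma-voom and without 3 of the single libraries. The call of LRRC15 between the hairpins was lost with only these groups in the fit and without shAHCY_2 library 58 or shAHCY_4 library 64.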

How the results depend on the processing

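No paired analysis was possible because the replicate numbers are not shared between groups. Against EV with 4OHT, 1025 genes were higher and 928 lower; with only these groups in the fit the counts were 1577 and 1559, and without a single library they ran from 679 (without EV library 56) to 953 and from 639 to 799. Between the hairpins, 73 higher and 95 lower became 244 and 237 with DESeq2, 123 and 430 without a filter and 31 and 47 with only these groups; without a single library they ran from 28 to 85 and from 38 to 71, falling by over 1.5 times without shAHCY_2 library 58 (44 and 44), 59 (62 lower) or 60 (57 lower) or shAHCY_4 library 62 (28 and 41), 63 (36 and 53) or 64 (37 and 38). Against EV without 4OHT no count moved by over 1.5 times (3103 to 3328 higher and 3175 to 3577 lower without a single library). The causes were not tested. With a library left out, 4 against 3 cannot give an exact p below 0.0571, so share differences kept their direction but not their call: -1.95 to -1.73 points for mitochondrial genes and -0.551 to -0.409 for ribosomal protein genes against EV, and -0.296 to -0.210 for ribosomal protein genes between the hairpins. Over 589 named genes and their alternatives against EV with 4OHT, 8308 of 8800 values kept direction and side of the threshold, 322 (68 genes) lost the call and 170 (76 genes) gained it; between the hairpins, 622 of 660 were kept, and none reversed in either. DESeq2 shared 1944 of the 1953 calls, limma-voom 1840 and library totals alone 1722. AHCY held 110 to 243 counts a library with shAHCY_4 and 117 to 334 with shAHCY_2; what limits the comparison of the hairpins there was not tested.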
